A study of Rattus norvegicus with 4 samples.

Results

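Liver RNA from a rat kept under sevoflurane for 6 h was compared, gene by gene, with liver RNA from a rat killed as soon as sevoflurane had made it unconscious (0 h). Sevoflurane is a halogenated ether inhaled to produce general anesthesia. These are 2 of the 4 RNA-seq libraries of the series, and the desflurane control (0 h), from a rat killed at loss of consciousness under another halogenated ether, served as a further reference for the spread between control livers. All rats are labelled wild type, sevoflurane was given at 4.5% and desflurane at 6%, and every animal was decapitated, so the controls had also inhaled an anesthetic. Each group held 1 library, and no value below has a replicate error. The livers of controls and of anesthetized rats were collected 6 h apart, so hour of day and length of anesthesia cannot be told apart when 6 h is set against 0 h. The members are the named genes in the abundance tables that span more than 200 bp, 16999 of 17455 symbols, with the rows of a symbol summed.

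The liver clears foreign compounds through cytochromes P450 and conjugating enzymes, and it keeps blood glucose, lipids and nitrogen waste in balance between meals. Its genes also follow a circadian clock, in which the factors encoded by *Arntl* and *Clock* drive the genes of their own repressors, and follow hormones such as insulin and glucocorticoids. Many liver genes therefore have levels that depend on feeding, hour and stress as well as on drugs.

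Abundance is given as the deposited TPM, a relative level scaled for gene length and library size that can be compared between genes. Rows of assembled loci are listed beside the named genes, which sum to 76.6% to 78.9% of the nominal TPM total in the 4 libraries, so a value is not an exact transcript share. Where 3 values stand in brackets after a gene, they are its TPM at sevoflurane 0 h, at sevoflurane 6 h and in the desflurane control, in that order. A gene was called higher or lower at 6 h where the higher of the TPM values passed 2 and their ratio passed 2. A change on the log2 scale is that of log2(TPM + 1), in which low-level genes change by less than their ratio. The sevoflurane 0 h library was the shallowest, at 3.50 Gb of aligned bases against 5.38 Gb at 6 h and 5.29 Gb in the desflurane control. A TPM of 2 stood for a mean coverage of 4.72 at 0 h and 6.84 at 6 h, and low values at 0 h are the least precise. *Alb*, albumin, and the other 9 hepatocyte markers were all above the minimum, and 0 of the 10 were called.

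Of the 8270 genes above the minimum, 417 (5.04%) were higher at 6 h and 307 (3.71%) were lower. These shares over all genes stand behind every count of list members below. A gene under the minimum in 1 sevoflurane library is tested only if it passes in the other. The filter therefore favors calls among low-level genes, in lists and over all genes alike. The same rule called 162 genes (1.96% of 8263) higher and 66 (0.799%) lower in the desflurane control than in the sevoflurane control. Genes that were higher than both controls numbered 210 (2.54% of the 8270), and genes lower than both numbered 169 (2.04%). These were 50.4% of the genes called higher and 55.0% of those called lower. The 2 comparisons share the 6 h library, so the counts against both controls are not independent support. With a ratio above 4, 107 genes were higher and 63 lower at 6 h, beside 16 and 5 between the controls. With a ratio above 8 the numbers were 35 and 19 beside 2 and 1, and with a ratio above 16 they were 24 and 7 beside 1 and 1. Over the 9201 genes whose TPM averaged 1 or more in the 4 libraries, the 5th and 95th percentiles of the change were -0.70 and 0.79 on the log2 scale at 6 h, and -0.35 and 0.57 between the controls. Their median change was 0.05 against the own control and -0.07 against the desflurane control, and the controls differed by 0.11. Most calls were of genes with modest levels, but 54 genes called higher and 26 called lower exceeded a TPM of 100. Leaving out *Rn7sl1*, the RNA of the signal recognition particle, which took 20.2% and 20.7% of the TPM of named genes at 0 h and 6 h, the genes called higher held 1.47% of the TPM at 0 h, 5.20% at 6 h and 1.86% in the desflurane control. The genes called lower held 2.09%, 0.688% and 1.82% in the same order. For 17 genes called higher and 10 called lower, the change against the desflurane control had the opposite sign.

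**Figure D1:**
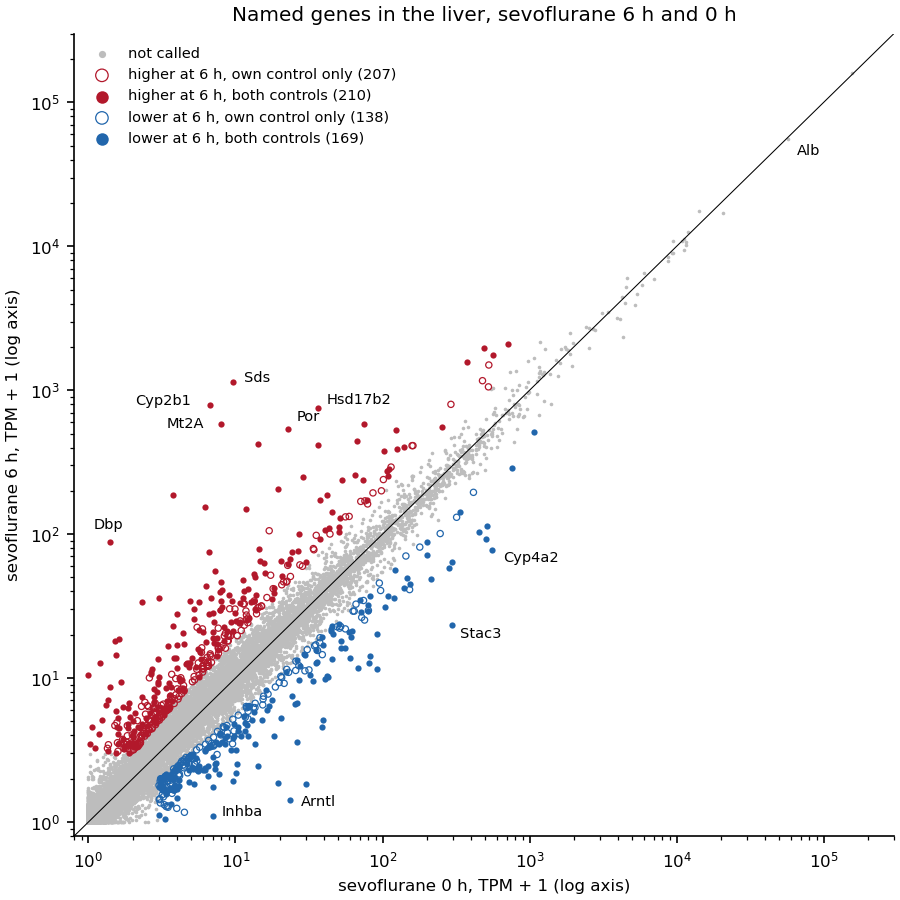
TPM + 1 of the 16999 named genes at sevoflurane 0 h (x, log axis) and 6 h (y, log axis), with 1 library on each axis; red marks the 417 genes called higher, blue the 307 called lower, and filled points those also called against the desflurane control. The points lie along the diagonal, albumin included, and far from it lie, among others, *Cyp2b1*, *Sds*, *Mt2A* and *Dbp* above and *Arntl*, *Inhba* and *Stac3* below.

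**Figure D2:**
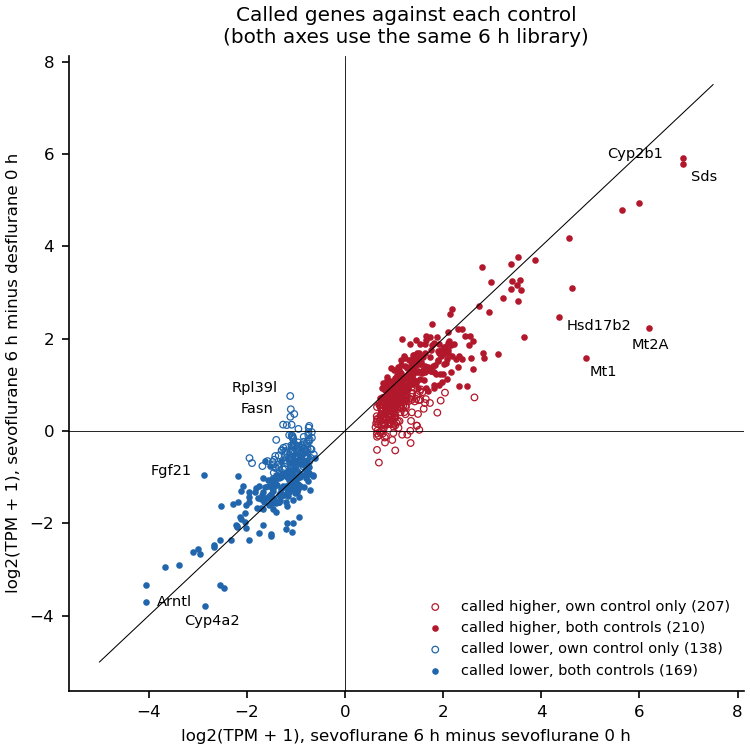
Change of log2(TPM + 1) of the 724 called genes against their own control (x) and against the desflurane control (y), both from the same 6 h library; the line marks equal changes. Most points lie near the line, *Mt1* and *Mt2A* lie far under it (changes of 4.91 and 6.19 against 1.59 and 2.23), and *Fasn* and *Rpl39l* change sign.

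The cytochromes P450 of families 1 to 3, which oxidize drugs, steroids and solvents, were led by a few members. Of 30 above the minimum, 5 were higher (16.7%, beside 5.04% of all genes) and 0 lower, all 5 against both controls. The median change of the list was 0.10, near that of all genes (0.05) and of the controls (0.09). *Cyp2b1*, a drug-inducible form deposited at chr7:99158102-99181774 (build rn6), had a TPM of 5.73 at 0 h, 789.99 at 6 h and 12.1 in the desflurane control, 138-fold higher than its own control. Its close relative *Cyp2b2* (35.5, 418 and 29.8), deposited at chr1:83103925-83119578, was 11.8-fold higher. The placement of these relatives on different chromosomes is as deposited and was not checked. How reads common to both genes were divided is not known, and their sum went from 41.2 to 1208, with 41.9 in the desflurane control. *Cyp3a23/3a1*, of the subfamily that handles many drugs, was 4.01-fold higher (488, 1955 and 616), and *Cyp3a9* (49.4, 102 and 49.4) and *Cyp2c12* (49.2, 111 and 27.3) passed the rule narrowly. *Cyp2e1*, the enzyme known for oxidizing volatile ethers and alcohol, lay just under the ratio (543, 1015 and 609.6). The abundant *Cyp2c11* (1772, 1936 and 1365) and *Cyp3a2* (947, 1045 and 1117) and the dioxin-responsive *Cyp1a2* (62.9, 93.3 and 59.96) were not called.

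Genes that serve the P450 enzymes included larger changes than most of the enzymes. *Por*, the reductase that feeds electrons to every microsomal P450, had a TPM of 21.8 at 0 h and 538 at 6 h against 28.6 in the desflurane control, 24.7-fold higher. *Alas1*, the first and rate-limiting enzyme of hepatic heme synthesis, was 7.92-fold higher (73.5, 582 and 60.9). These were the 2 called genes among 17 of the P450 partners and heme pathway, whose median was -0.17, and *Hmox1*, which degrades heme, was not called (14.1, 9.76 and 13.8). *Nr1i2*, the xenobiotic receptor PXR, was 3.83-fold higher (25.998, 99.7 and 34.1), while *Nr1i3*, the receptor CAR, was level with its own control (25.8, 26.3 and 44.03). *Ahr*, the dioxin receptor, was higher than its own control but not than the other (8.92, 29.2 and 20.6).

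Enzymes and pumps of the later steps included genes called in either direction. Of 51 conjugating enzymes above the minimum, 1 was higher (1.96%) and 2 were lower (3.92%). The shares over all genes were 5.04% and 3.71%, so conjugating enzymes were called about as often as other genes, or less. *Nnmt*, which methylates nicotinamide, was 2.94-fold higher (25.7, 75.4 and 22.8), whereas the decreases of *Gstm5* (4.27, 1.55 and 1.88) and *Sult2b1* (2.45, 0.737 and 1.15) did not hold against the desflurane control. Among 36 other oxidizing, reducing and hydrolyzing enzymes 4 were higher (11.1%) and 3 lower (8.33%). The alcohol dehydrogenases *Adh1* (451, 103 and 254) and *Adh7* (12.6, 2.51 and 9.16) were 4.37-fold and 5.02-fold lower. The carboxylesterases *Ces2e* (1.66, 10.1 and 3.01) and *Ces2c* (10.4, 39.2 and 9.66) were higher than both controls, and the steroid reductase *Akr1c14* (478, 1164 and 612) was higher than its own only. The drug efflux pumps *Abcb1a* (2.76, 22.1 and 4.99) and *Abcb1b* (0.853, 3.47 and 1.43) were 7.99-fold and 4.07-fold higher, and the carnitine transporter *Slc22a5* (2.68, 9.62 and 4.85) was higher than its own control only.

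Genes that break down amino acids included a few members with large changes. Of 51 members, 8 were higher (15.7%, beside 5.04% of all genes), all against both controls, and 2 were lower (3.92%, beside 3.71%). The median was 0.13 beside -0.09 between the controls. *Sds*, serine dehydratase, which turns serine into pyruvate and lies at chr12:41620430-41627741 (rn6), had a TPM of 8.66 at 0 h, 1135 at 6 h and 19.8 in the desflurane control, a 131-fold difference from its own control. *Got1*, the cytosolic aspartate aminotransferase, was 11.01-fold higher (18.5, 203 and 15.5). *Tat*, the first enzyme of tyrosine breakdown, was 4.29-fold higher (123, 529 and 119). *Mat1a*, which makes the methyl donor S-adenosylmethionine, was 4.21-fold higher (373, 1573 and 489), and *Tdo2*, the first enzyme of tryptophan breakdown, was 3.13-fold higher (565, 1766 and 422). In each of these 5 genes the 6 h library stood above both controls, and the controls were at most 1.34 times apart except for *Sds*, at 2.28 times. *Cth*, which forms cysteine from cystathionine, went the other way (516, 113 and 329).

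The urea cycle disposes of the nitrogen that amino acid breakdown releases. Of its 10 members 3 were higher (30%, beside 5.04% of all genes) and 0 lower. The median change was 0.45 beside -0.03 between the controls. Argininosuccinate lyase, *Asl*, was 3.76-fold higher (101, 379.7 and 130.2). *Arg1*, the arginase that releases urea, was 2.97-fold higher (708, 2104 and 886), and *Slc25a15*, which carries ornithine into mitochondria, was 2.55-fold higher (110.4, 282 and 114). *Ass1* (739, 1346 and 580.5) and *Cps1* (1072, 1677 and 909), which catalyze earlier steps, were under the ratio, and *Glul*, glutamine synthetase of the pericentral cells, was not called (152, 127 and 141). Transporters that bring amino acids into cells had 6 of 17 members higher (35.3%) and 1 lower (5.88%, beside 3.71% of all genes), with a median of 0.66. The cationic carrier *Slc7a2* (52.1, 235 and 63.6), the neutral carriers *Slc38a2* (14.7, 61.8 and 18.03) and *Slc38a4* (251, 558 and 239), *Slc43a1* for large neutral amino acids (14.8, 52.9 and 9.85) and *Slc16a10* for aromatic ones (4.73, 14.1 and 3.83) were higher than both controls. *Slc6a6*, which takes up taurine, was 4.37-fold lower (25.03, 5.72 and 17.1). In pyrimidine turnover the change was that of 1 gene of 13. *Upp2*, a uridine phosphorylase, was 67.9-fold higher (2.74, 186 and 5.83), and the related *Upp1* was not called (5.41, 3.91 and 2.53).

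**Figure D3:**
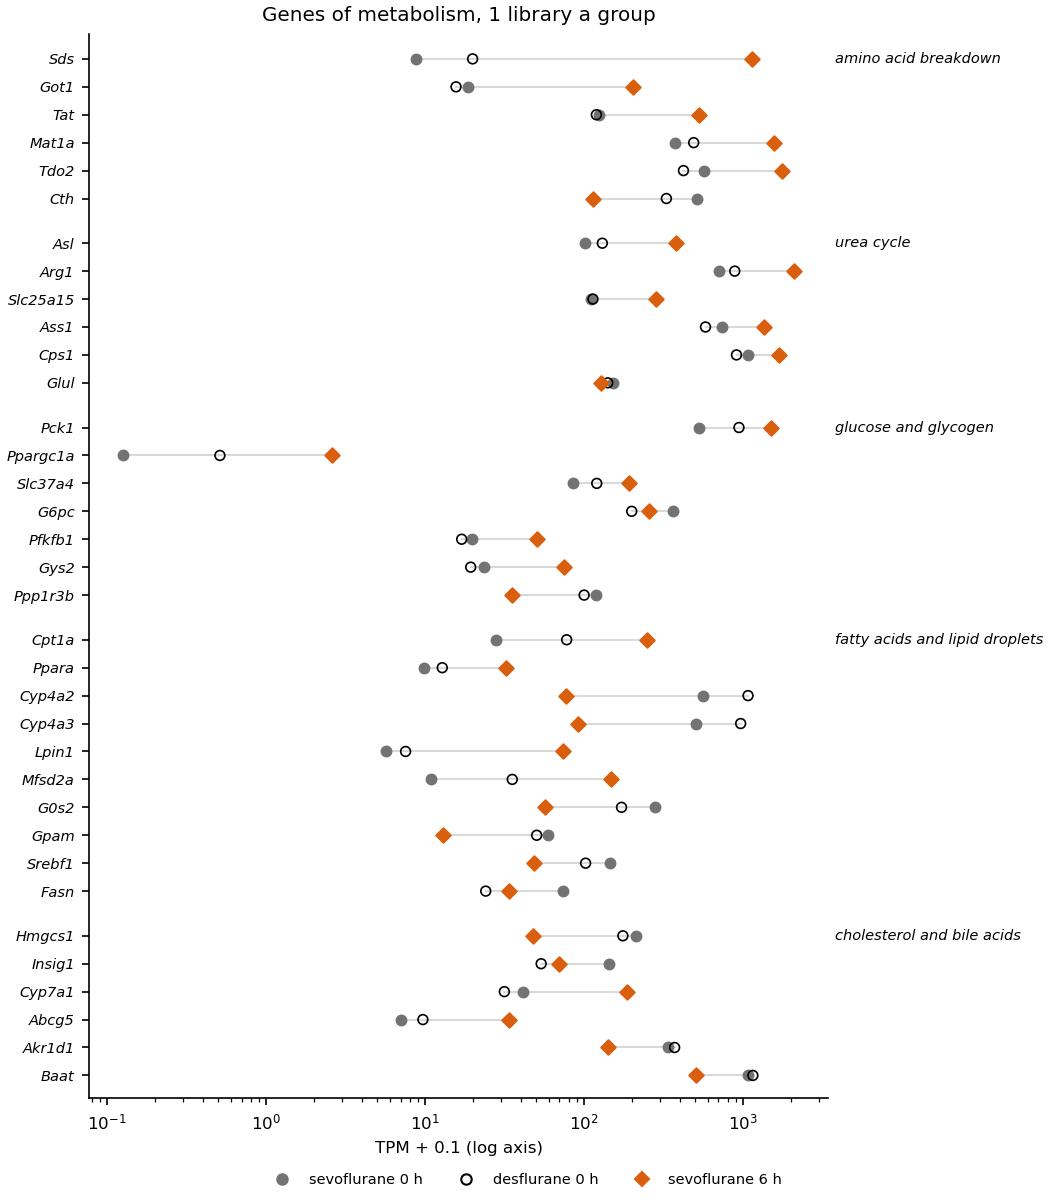
TPM + 0.1 (x, log axis) of genes of amino acid, glucose and lipid metabolism in the sevoflurane control (filled circles), the desflurane control (open circles) and sevoflurane 6 h (diamonds), 1 library each. *Sds* and *Got1* lie far to the right of both controls and *Cyp4a2* to the left, while *Fasn*, *G6pc* and *Insig1* lie between the controls.

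Genes of glucose output were higher as far as they were called. Of 10 genes of gluconeogenesis above the minimum, 4 were higher (40%, beside 5.04% of all genes) and 0 lower. Only *Ppargc1a*, a coactivator of fasting genes at low levels (0.0255, 2.48 and 0.412), held against both controls. *Pck1*, which catalyzes the committed step, was 2.84-fold higher than its own control (527, 1497 and 942), *Slc37a4*, which carries glucose 6-phosphate into the ER, 2.26-fold (85.1, 193 and 120.03), and the insulin-restrained factor *Foxo1* 2.15-fold (2.45, 5.27 and 3.06). *G6pc*, which releases free glucose, (361, 258 and 199) and *Fbp1* (306, 416 and 387) were not called. Among 22 genes of glycolysis and glucose transport 2 were higher (9.09%) and 1 was lower (4.55%, beside 3.71% of all genes). *Pfkfb1*, which sets fructose 2,6-bisphosphate, (19.7, 50.6 and 16.9) and the glucose transporter *Slc2a2* (113, 292 and 151) were higher, the latter against its own control only. *Pklr*, pyruvate kinase, was not called (49.8, 39.4 and 45.6).

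Glycogen genes had 3 members higher (16.7%, beside 5.04% of all genes) and 1 lower (5.56%, beside 3.71%) of 18, all 4 against both controls. *Gys2*, liver glycogen synthase, was 3.19-fold higher (23.2, 74.1 and 19.3). *Epm2a*, which encodes laforin, (0.245, 4.08 and 0.446) and *Nhlrc1*, which encodes its partner malin, (0.993, 4.02 and 0.9904) were 16.7-fold and 4.05-fold higher at low levels. *Ppp1r3b*, which brings protein phosphatase 1 to glycogen, was 3.35-fold lower (118, 35.3 and 99.97), and *Pygl*, glycogen phosphorylase, was not called (132, 109 and 125). In the insulin, growth hormone and IGF axis 3 genes were higher and 3 lower of 19 (15.8% in each direction). The IGF binding proteins *Igfbp1* (5.29, 42.7 and 2.74) and *Igfbp2* (0.898, 5.68 and 1.77), which rise in the fasting liver, were 8.08-fold and 6.33-fold higher. *Socs2*, a growth hormone target that dampens its signal, was 3.55-fold lower (44.5, 12.5 and 29.8). *Irs3* (3.49, 0.168 and 0.753), *Stat5a* (6.27, 2.47 and 4.34) and *Lepr* (1.44, 4.61 and 2.59) were called against their own control only, and *Igf1* (225, 246 and 244), *Insr* (14.5, 19.7 and 15.9) and *Irs2* (0.659, 1.46 and 0.498) were not called.

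Fatty acid genes did not move as 1 group. Of 44 genes of oxidation and ketogenesis 5 were higher (11.4%, beside 5.04% of all genes) and 4 lower (9.09%, beside 3.71%). Against both controls 2 and 2 held, and the median was 0.07 beside 0.21 between the controls. *Cpt1a*, which admits long-chain fatty acids to mitochondria, was 8.94-fold higher (27.9, 249.5 and 77.6), and the fatty acid receptor *Ppara* was 3.305-fold higher (9.704, 32.1 and 12.7). The omega-hydroxylases *Cyp4a2* (558, 76.9 and 1075) and *Cyp4a3* (503, 90.998 and 966), which are textbook targets of that receptor, were 7.26-fold and 5.53-fold lower. They are close relatives that may share reads, and their sum was 1061 at 0 h, 168 at 6 h and 2041 in the desflurane control. *Angptl4*, an inhibitor of lipoprotein lipase, (74.5, 24.3 and 38.7) and *Pdk4*, which restrains glucose oxidation, (12.6, 5.23 and 8.55) were lower than their own control only. *Cyp4b1* was higher than its own control only (4.59, 11.7 and 6.17).

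Genes of triglyceride and lipid droplet handling had 6 members higher (26.1%, beside 5.04% of all genes) and 5 lower (21.7%, beside 3.71%) of 23. *Lpin1*, a phosphatidate phosphatase and fasting coactivator, was 13.3-fold higher (5.58, 74.03 and 7.43). *Mfsd2a*, a lysophospholipid transporter, was 13.7-fold higher (10.9, 149 and 35.2), although the desflurane control was 1.61 above the sevoflurane control on the log2 scale. *Pnpla2*, the first lipase of the droplet, was 3.03-fold higher (8.94, 27.1 and 10.6), and *G0s2*, which encodes its inhibitor, was 4.94-fold lower (281, 56.9 and 172). *Gpam*, which begins glycerolipid synthesis, (59.02, 12.8 and 50.2) and the droplet proteins *Cidea* (9.12, 2.15 and 7.25) and *Plin2* (199, 86.6 and 269.8) were lower than both controls. In fatty acid synthesis 1 gene was higher (5.56%) and 2 were lower (11.1%) of 18, and the controls themselves differed by a median of -0.41. *Srebf1*, the insulin-responsive regulator of the pathway, was 3.001-fold lower and held against both controls (146, 48.6 and 102). *Fasn*, fatty acid synthase, was 2.18-fold lower than its own control but above the desflurane control (73.3, 33.6 and 23.96). *Scd*, the stearoyl-CoA desaturase, (402, 386 and 153) was level with its own control and above the other by more than the ratio, *Elovl2* (7.93, 17.1 and 8.74) was higher than its own only, and *Acaca* (26.3, 29.7 and 19.1) was not called.

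Cholesterol synthesis and uptake had 0 members higher and 10 lower of 28 (35.7%, beside 3.71% of all genes). Of the 28 changes 24 were negative, beside 26 between the controls, and the median was -0.60. The controls differed in this list as well, by a median of -0.45 with lower values in the desflurane control, and against that control 3 of the 10 held and the median was -0.25. *Hmgcs1*, an early enzyme of the pathway, was 4.46-fold lower (212, 47.5 and 175). The later enzymes *Pmvk* (30.6, 10.4 and 17.1), *Idi1* (28.7, 10.2 and 18.5), *Fdps* (246, 99.95 and 134) and *Dhcr7* (37.9, 13.5 and 24.3) were between 2.46-fold and 2.94-fold lower than their own control. They were not called against the other. *Sqle*, squalene epoxidase, (9.05, 6.91 and 5.396) and *Insig2* (386, 246 and 333) were not called. *Insig1*, the sterol sensor of the ER, was lower than its own control and above the desflurane control (143, 69.5 and 53.6).

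Of 20 genes of bile acid synthesis and transport, 3 were higher (15%, beside 5.04% of all genes) and 2 lower (10%, beside 3.71%). *Cyp7a1*, the rate-limiting enzyme of bile acid synthesis, was 4.51-fold higher (41.2, 186 and 31.4). *Abcg5* (6.97, 33.4 and 9.58) and *Abcg8* (1.57, 4.17 and 2.26), whose products together pump sterols into bile, were 4.79-fold and 2.66-fold higher, the latter against its own control only. *Akr1d1*, which reduces the steroid ring, (337, 142 and 371) and *Baat*, which joins bile acids to amino acids, (1077, 508 and 1153) were 2.38-fold and 2.12-fold lower than their own control and lower than the other as well. *Cyp8b1* (41.6, 34.2 and 44.3) and the bile acid carriers *Slc10a1* (189.6, 175 and 236) and *Abcb11* (174, 168 and 183) were not called. *Nr0b2*, the bile acid induced repressor SHP, was level with its own control and past the ratio against the other (33.5, 36.2 and 15.3).

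The metallothioneins, small proteins that bind zinc and copper, differed between the controls as well as at 6 h. *Mt2A* had a TPM of 6.98 at 0 h, 580.2 at 6 h and 123 in the desflurane control, so the 6 h value was 83.1 times its own control and 4.72 times the other. *Mt1* was 32.2 times its own control and 3.02 times the other (13.2, 424 and 140.4). Together they took 20.2, 1004 and 263 TPM, and the controls themselves were past the rule for both genes. Of the 10 zinc genes above the minimum these were the 2 called, and the others were not, including the manganese exporter *Slc30a10* (23.2, 15.9 and 20.8) and the importer *Slc39a14* (47.3, 52.6 and 43.6). The stretches before the start of the 2 metallothionein genes are shown because both hold the core of the metal response element, bound by the zinc sensor MTF1. Each is the 150 bases before the start in RefSeq (GRCr8), read 5′ to 3′ on the gene's strand, at chr19:10832976-10833125 for *Mt1* and chr19:10838709-10838858 for *Mt2A*, both on the minus strand. Capitals mark TGCGCNC on either strand.
Mt1: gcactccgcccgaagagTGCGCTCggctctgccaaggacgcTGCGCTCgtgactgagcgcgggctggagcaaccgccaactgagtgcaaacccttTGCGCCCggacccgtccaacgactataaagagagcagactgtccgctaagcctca
Mt2A: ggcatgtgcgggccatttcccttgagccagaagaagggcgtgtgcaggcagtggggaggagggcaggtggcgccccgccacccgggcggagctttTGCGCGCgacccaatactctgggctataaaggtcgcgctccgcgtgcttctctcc
*Mt1* holds the core 3 times, at 133, 109 and 55 bases before the start, and *Mt2A* holds it at 55 bases before the start. Over the windows from 250 bases before to 50 bases after the start, 15.02% of 27457 promoters hold this core at least once, so its presence is a description of these genes and no measure of binding.

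In iron regulation, *Id2*, an inhibitor of helix-loop-helix factors that responds to BMP signals, was 6.84-fold lower (79.99, 11.7 and 69.1). *Steap3*, a ferrireductase, was lower than its own control only (19.6, 9.08 and 18.1). *Hamp*, which encodes the iron hormone hepcidin, was level with its own control and lower than the desflurane control (52.5, 51.1 and 113). The transferrin receptor *Tfrc* (26.3, 20.2 and 18.5) and the iron exporter *Slc40a1* (11.8, 14.3 and 15.9) were not called, and 0 of the 21 genes above the minimum were higher.

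The clock genes formed the lists with the largest medians. Of 9 genes of the negative limb, which encode repressors of the loop, 7 were higher (77.8%, beside 5.04% of all genes) and 0 lower. Of these 7, 6 were higher than both controls, and the median change was 2.30 beside 0.17 between the controls. *Per3* went from 0.207 to 11.8 TPM, with 0.355 in the desflurane control. *Per1* (0.352, 6.05 and 1.38), *Nr1d1* (0.407, 7.65 and 2.41), *Nr1d2* (4.21, 24.7 and 8.88) and *Cry2* (2.57, 6.61 and 2.09) were higher than both controls, whereas *Per2* (1.24, 2.89 and 1.51) was higher than its own and *Cry1* (4.99, 3.31 and 2.28) was not called. *Per1*, *Per3* and *Nr1d1* started from a TPM under 1, and all 3 were lower in the sevoflurane control than in the desflurane control. *Ciart*, a repressor named for its circadian rhythm, was listed at 0 in the sevoflurane control, at 9.46 at 6 h and at 0.241 in the desflurane control, so no ratio is given. Its promoter is shown because it holds the E-box CACGTG, the element bound by the ARNTL and CLOCK pair, 3 times, at 93, 35 and 21 bases before the start. The 150 bases before the start are at chr2:186112247-186112396 (GRCr8, RefSeq, minus strand), and capitals mark the E-boxes.
Ciart: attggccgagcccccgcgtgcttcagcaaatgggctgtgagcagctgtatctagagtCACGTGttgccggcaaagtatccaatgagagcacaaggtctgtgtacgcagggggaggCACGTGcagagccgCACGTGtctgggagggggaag
The search of the window from 250 bases before to 50 bases after the start found this element in 1 of the 7 called negative-limb genes, in 1 of 6 called output regulators with a promoter in the table (*Tef*), and in 6.65% of all 27457 promoters. The D-box TTATGNAA was found in *Per2* of the 7 and in 3.54% of all promoters, and the ROR element AGGTCA in *Nr1d2* and in 15.7%.

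The positive limb moved the opposite way. *Arntl* had a TPM of 22.6 at 0 h, 0.426 at 6 h and 17.6 in the desflurane control, 52.99-fold lower than its own control, and *Clock* was 2.298-fold lower (8.73, 3.797 and 8.83). Of the 8 regulators through which the clock reaches other genes, 7 were higher (87.5%, beside 5.04% of all genes) and 1 lower. The median was 2.03 beside 0.50 between the controls. *Dbp*, a transcription factor at chr1:101687896-101692845 (rn6) that follows the E-box rhythm, had a TPM of 0.4002 at 0 h, 87.9 at 6 h and 1.92 in the desflurane control. The deadenylase *Noct* (0.625, 17.6 and 1.66), the deubiquitinase *Usp2* (0.536, 13.4 and 0.943) and the factor *Tef* (4.19, 29.1 and 7.25) were 28.2-fold, 24.9-fold and 6.93-fold higher. *Nampt*, which makes NAD, was 2.802-fold higher (21.7, 60.8 and 21.3), *Tsc22d3* was higher than its own control only (10.3, 31.8 and 19.5), and the repressor *Nfil3* was lower than its own only (17.7, 7.66 and 15.2).

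**Figure D4:**
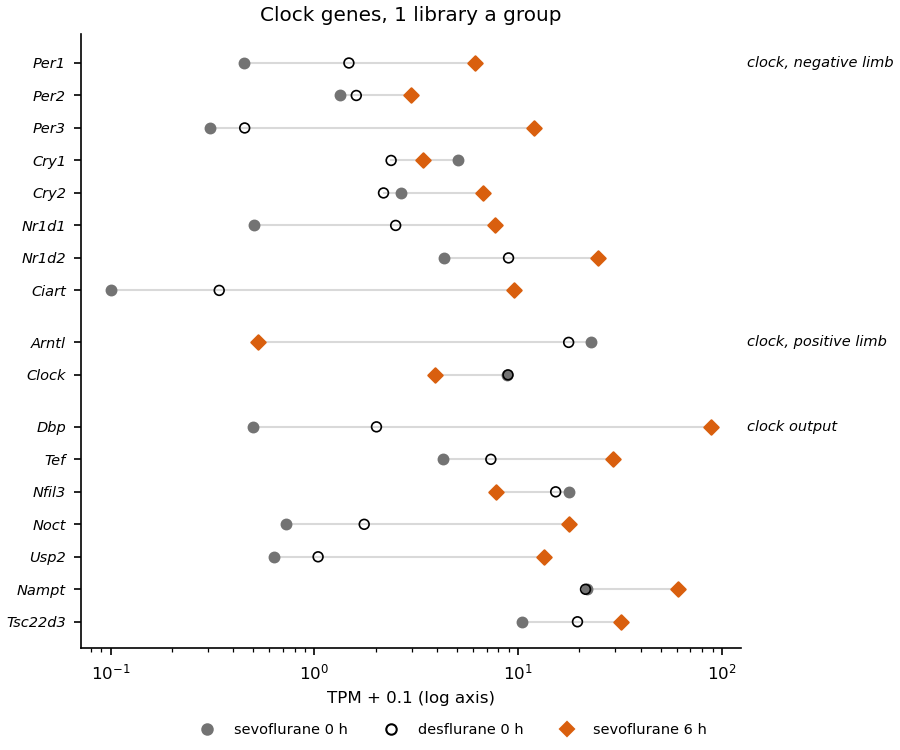
TPM + 0.1 (x, log axis) of clock genes in the sevoflurane control (filled circles), the desflurane control (open circles) and sevoflurane 6 h (diamonds), 1 library each. The diamonds of *Dbp*, *Per3*, *Ciart*, *Noct* and *Usp2* lie far to the right of both controls, that of *Arntl* lies far to the left, and that of *Cry1* lies between them.

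Glucocorticoid receptor targets, many of which also follow the clock or fasting, had 14 of 23 members higher and 3 lower. Over all genes 5.04% were higher and 3.71% lower. Against both controls 11 and 1 of the members held. The median was 1.54, beside 0.18 between the controls, and it was 0.97 against the desflurane control. By the same rule 5 members were higher and 1 was lower in the desflurane control than in the sevoflurane control. The list overlaps others above, so its counts are not separate from theirs. *Mt1*, *Mt2A*, *Lpin1*, *Igfbp1*, *Tsc22d3*, *Tat*, *Tdo2*, *Pck1* and *Per1*, all called higher, belong to it. So do *Angptl4* and *Pdk4*, which were called lower than their own control. *Fkbp5*, a cochaperone of the receptor and one of its most used readouts, was 4.46-fold higher (2.85, 12.7 and 4.102). *Zbtb16* was 12.6-fold higher than its own control (0.665, 8.39 and 3.79), and the desflurane control was itself past the rule. *Nr3c1*, the receptor gene, was under the ratio (52.2, 28.5 and 36.4). *Gadd45b*, a growth arrest gene that also belongs to the immediate early list, was 25.03-fold higher (1.31, 32.8 and 1.598).

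Of 16 immediate early genes above the minimum, 6 were higher (37.5%, beside 5.04% of all genes) and 0 lower. Such genes respond within minutes to growth factors or stress. *Jun* (7.803, 20.2 and 7.27), *Zfp36*, whose product destabilizes cytokine mRNAs, (2.37, 7.49 and 1.32) and *Klf10* (3.43, 7.53 and 2.301) were higher than both controls, and *Gadd45a* (4.48, 21.5 and 11.7) and *Ier3* (10.9, 24.6 and 14.8) than their own. The classical members were near or at 0, with *Fos* at 0.351, 0 and 0.0551 and *Egr1* at 0, 0.1202 and 0. *Myc* stayed under the minimum TPM (0.352, 1.71 and 1.29). In the list of p53 targets and growth arrest 5 of 22 were higher (22.7%). *Plk3* (0.856, 5.19 and 1.04), *Tp53inp1* (12.9, 36.96 and 17.004) and the death-promoting *Bcl2l11* (0.365, 2.0998 and 0.909) held against both controls, *Mdm2* (7.83, 17.1 and 10.4) did not, and *Cdkn1a*, the p21 gene, was not called (3.0997, 1.64 and 4.297). In the cell cycle list *Ccne1* (0.6004, 4.31 and 0.289) and *Wee1* (1.01, 3.08 and 0.843) were higher than both controls, *Ccnd1* was higher than its own and level with the other (10.5, 31.8 and 31.2), *Cdk6* was lower than its own only (3.11, 1.43 and 2.198), and the proliferation marker *Mki67* was low in all 3 libraries (0.942, 0.778 and 1.13).

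Genes that interferons induce were lower as far as they were called. Of 11 GTPases and factors of the interferon-gamma response above the minimum, 6 were lower (54.5%, beside 3.71% of all genes) and 0 higher. Of these 6, 5 were lower than both controls, and the median was -0.79 beside 0.13 between the controls. *Irf1*, the factor that relays the signal, was 4.57-fold lower (19.4, 4.24 and 25.97). The immunity-related GTPases *Irgm* (17.2, 2.94 and 15.6) and *Igtp* (59.9, 18.2 and 77.9) were 5.84-fold and 3.29-fold lower, and *Gbp5* (4.45, 1.37 and 3.55) and *Ifi47* (7.15, 2.602 and 7.64) followed. *Gbp2* was lower than its own control only (14.5, 6.48 and 11.8). Of 31 antiviral genes of the type I response 6 were lower (19.4%) and 0 higher, with a median of -0.52 beside -0.10. The dynamin-like *Mx2* (31.1, 9.43 and 23.2) and *Mx1* (7.51, 2.49 and 5.796), *Rtp4* (14.1, 4.11 and 10.6) and the nucleotidase *Samhd1* (3.15, 0.952 and 2.09) were lower than both controls, *Oasl* (2.98, 0.882 and 1.38) was lower than its own, and *Irf7* was not called (14.2, 8.25 and 12.6). In bulk tissue, fewer cells of a type and less RNA per cell cannot be told apart.

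The promoters of 4 of the 6 called interferon-gamma genes are shown because they hold the elements through which interferon signals reach their genes. The 150 bases before the start are given (GRCr8, RefSeq), at chr10:38417785-38417934 on the plus strand for *Irf1*, chr10:42874897-42875046 on the plus strand for *Igtp*, chr10:33742579-33742728 on the minus strand for *Irgm* and chr2:234005577-234005726 on the plus strand for *Gbp2*. Capitals mark the gamma-activated site TTCNNNGAA and the interferon-stimulated element, in which TTTC recurs after any 2 bases, searched on both strands, so that the latter can read as GAAA, 2 bases and GAAA.
Irf1: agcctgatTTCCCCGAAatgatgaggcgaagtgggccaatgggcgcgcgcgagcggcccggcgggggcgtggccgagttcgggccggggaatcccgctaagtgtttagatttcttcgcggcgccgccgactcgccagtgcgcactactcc
Igtp: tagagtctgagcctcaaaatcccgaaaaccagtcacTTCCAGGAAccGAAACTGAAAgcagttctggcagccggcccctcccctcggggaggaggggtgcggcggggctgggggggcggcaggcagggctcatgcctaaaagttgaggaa
Irgm: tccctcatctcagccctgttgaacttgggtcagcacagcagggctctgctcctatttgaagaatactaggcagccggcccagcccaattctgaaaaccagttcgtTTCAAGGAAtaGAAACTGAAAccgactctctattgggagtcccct
Gbp2: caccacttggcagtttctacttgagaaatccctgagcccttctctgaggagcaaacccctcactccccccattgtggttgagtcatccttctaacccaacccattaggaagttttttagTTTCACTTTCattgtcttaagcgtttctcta
In *Igtp* and *Irgm* the gamma-activated site and the interferon-stimulated element lie side by side. Over the window from 250 bases before to 50 bases after the start, the gamma-activated site was found in *Irf1*, *Igtp*, *Irgm* and *Ifi47*, 4 of the 6 called genes, and in 8.68% of all promoters. The interferon-stimulated element was found in *Igtp*, *Irgm*, *Gbp2* and *Gbp5*, and in 3.77% of all promoters. Of the 6 called antiviral genes 3 are in the promoter table, and 0 of those hold the latter element in this window.

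Other immune genes were mixed. Of 29 genes of MHC and antigen processing above the minimum, 2 were lower (6.90%, beside 3.71% of all genes) and 0 higher. Of the 30 used in the median 26 were negative, beside 16 between the controls (median -0.25, beside -0.01). The 2 called lower were *Psmb9*, an immunoproteasome subunit, (78.8, 28.1 and 58.9) and the peptide transporter *Tap1* (25.3, 12.4 and 29.5). The related subunit *Psmb8* (113, 61.5 and 102), *Cd74* (139, 108 and 126) and *B2m* (849.5, 681 and 807) were not called. Among 33 interleukin, receptor and NF-kB genes 5 were higher (15.2%, beside 5.04% of all genes) and 6 lower (18.2%, beside 3.71%). *Il6r*, the interleukin 6 receptor, (7.14, 39.9 and 19.9) and *Il1r1*, the interleukin 1 receptor, (19.5, 63.7 and 15.4) were 5.58-fold and 3.27-fold higher, and *Nfkbia*, the inhibitor of NF-kB, was higher than its own control only (16.3, 50.8 and 27.9). *Tnfrsf1b*, a TNF receptor of leukocytes, (15.4, 4.98 and 13.8) and the inflammasome adaptor *Pycard* (10.6, 3.31 and 8.26) were lower than both controls, and *Casp1* (9.58, 3.096 and 5.81) than its own, while *Il33* was not called (11.2, 14.96 and 15.4). Of 11 chemokine genes, *Xcl1* was lower (2.78, 0.681 and 3.48) and *Cxcr4* was higher than its own control but level with the other (0.346, 2.25 and 2.43). *Ccl6* (212, 133 and 202) and *Cxcl12* (67.7, 40.1 and 57.98) were not called.

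Stress pathways differed from one another. In the ATF4 response, which follows shortage of amino acids or ER stress, 1 of 21 genes was higher and 4 were lower. These were 4.76% and 19.0%, beside 5.04% and 3.71% of all genes. The median was -0.27 beside 0.19 between the controls. *Fgf21*, a hormone of the fasting liver, was 9.71-fold lower than its own control (25.1, 2.59 and 5.94), but the controls differed 4.23-fold and the 6 h value was 2.298-fold under the desflurane control. The serine and folate enzymes *Phgdh* (2.44, 0.645 and 5.56) and *Mthfd2* (2.21, 0.791 and 3.13) were lower than both controls, and the stress hormone *Gdf15* (4.53, 1.31 and 1.098) was lower than its own only. *Ppp1r15a*, which reverses the translation block, was higher than both controls (3.34, 8.65 and 2.33). *Atf4* (129, 79.04 and 89.7), *Asns* (2.56, 1.304 and 4.203) and *Trib3* (4.97, 9.86 and 3.02) were not called against their own control.

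Among 31 genes of ER protein folding 4 were higher (12.9%, beside 5.04% of all genes), all against both controls, and 0 lower. *Edem1*, which sends misfolded glycoproteins to degradation, was 6.71-fold higher (66.2, 444 and 67.2). *Herpud1* (64.1, 255 and 122) and *Derl3* (0.539, 4.87 and 1.51), of the same disposal route, were 3.98-fold and 9.05-fold higher, and the factor *Xbp1* was 2.35-fold higher (108, 255 and 96.05). The chaperone *Hspa5*, the usual readout of ER stress, was not called (385, 355 and 406), and the median of the list was 0.05. Among 23 heat shock genes 3 were lower and 0 higher. *Fkbp4*, a cochaperone of steroid receptors, (70.005, 27.9 and 68.2) and *Hspb1* (6.89, 3.07 and 8.06) were lower than both controls and *Cryab* (3.25, 1.57 and 3.05) than its own, while *Hsp90aa1* (50.5, 31.6 and 51.2), *Hspa8* (139, 179.8 and 337) and *Hspa1b* (0.143, 0.5905 and 0.409) were not called. Among 25 NRF2 targets, the antioxidant genes, 3 (12%) were lower than both controls and 0 higher. *Osgin1*, a growth inhibitor induced by oxidative stress, was 8.66-fold lower (91.4, 10.5 and 67.04). *Gpx2*, a glutathione peroxidase at low levels, (2.04, 0.118 and 2.11) and *Nfe2l2*, which encodes NRF2 itself, (78.6, 31.2 and 62.6) were 17.2-fold and 2.52-fold lower, and *Nqo1* (6.41, 5.88 and 5.15) and *Gclc* (43.4, 34.4 and 53.3) were not called.

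Sets of housekeeping function other than ribosome biogenesis had few calls, where 5.04% of all genes were higher and 3.71% lower. Of 15 reference genes such as *Actb* (343, 263 and 298) and *Gapdh* (91.2, 75.2 and 93.7) 0 were called (median -0.16, beside 0.07 between the controls). Of 75 subunits of oxidative phosphorylation 0 were called in either direction, and 62 of the 75 were negative (median -0.12, beside 0.07 between the controls). Of 81 cytosolic ribosomal proteins 0 were higher and 2 lower, with a median of -0.12 beside 0.21. Neither call held against the desflurane control. *Rps9* (414, 194 and 241) was listed in 2 rows at 0 h and 1 row at 6 h, and its largest rows were 225 and 194, while *Rpl39l* was listed at 0 in the desflurane control (2.66, 0.691 and 0). Of 37 proteasome subunits, *Psmb9* was the 1 called. Genes of ribosome biogenesis had 8 of 47 members higher (17.0%, beside 5.04% of all genes) and 0 lower. Of the 48 used in the median 43 were positive, beside 40 between the controls (median 0.38, beside 0.28). 0 of the 8 held against the desflurane control, and *Heatr1* (1.42, 5.79 and 4.26), *Utp14a* (1.76, 5.17 and 3.41), *Noc3l* (2.704, 6.12 and 5.06), *Nob1* (2.84, 6.18 and 4.51), *Taf1d* (5.48, 11.9 and 8.02) and *Utp15* (3.31, 6.82 and 4.82) had the largest changes. *Ncl* (11.6, 17.98 and 13.8), *Npm1* (93.7, 113 and 103) and *Fbl* (2.71, 2.68 and 2.48) were not called. Of 42 genes of complement and coagulation and 27 of the acute phase, *Mbl2*, a mannose-binding lectin, was the 1 called, as lower than its own control (318, 129.998 and 175). Its call rests on the summing of 2 rows at 0 h, the larger at 162, against 1 row at 6 h. *Hp* (8805, 7913 and 8561) and *Crp* (1264, 1920.4 and 1448) were not called, and *A2m* was under the minimum (0.106, 0.503 and 0.668).

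**Figure D5:**
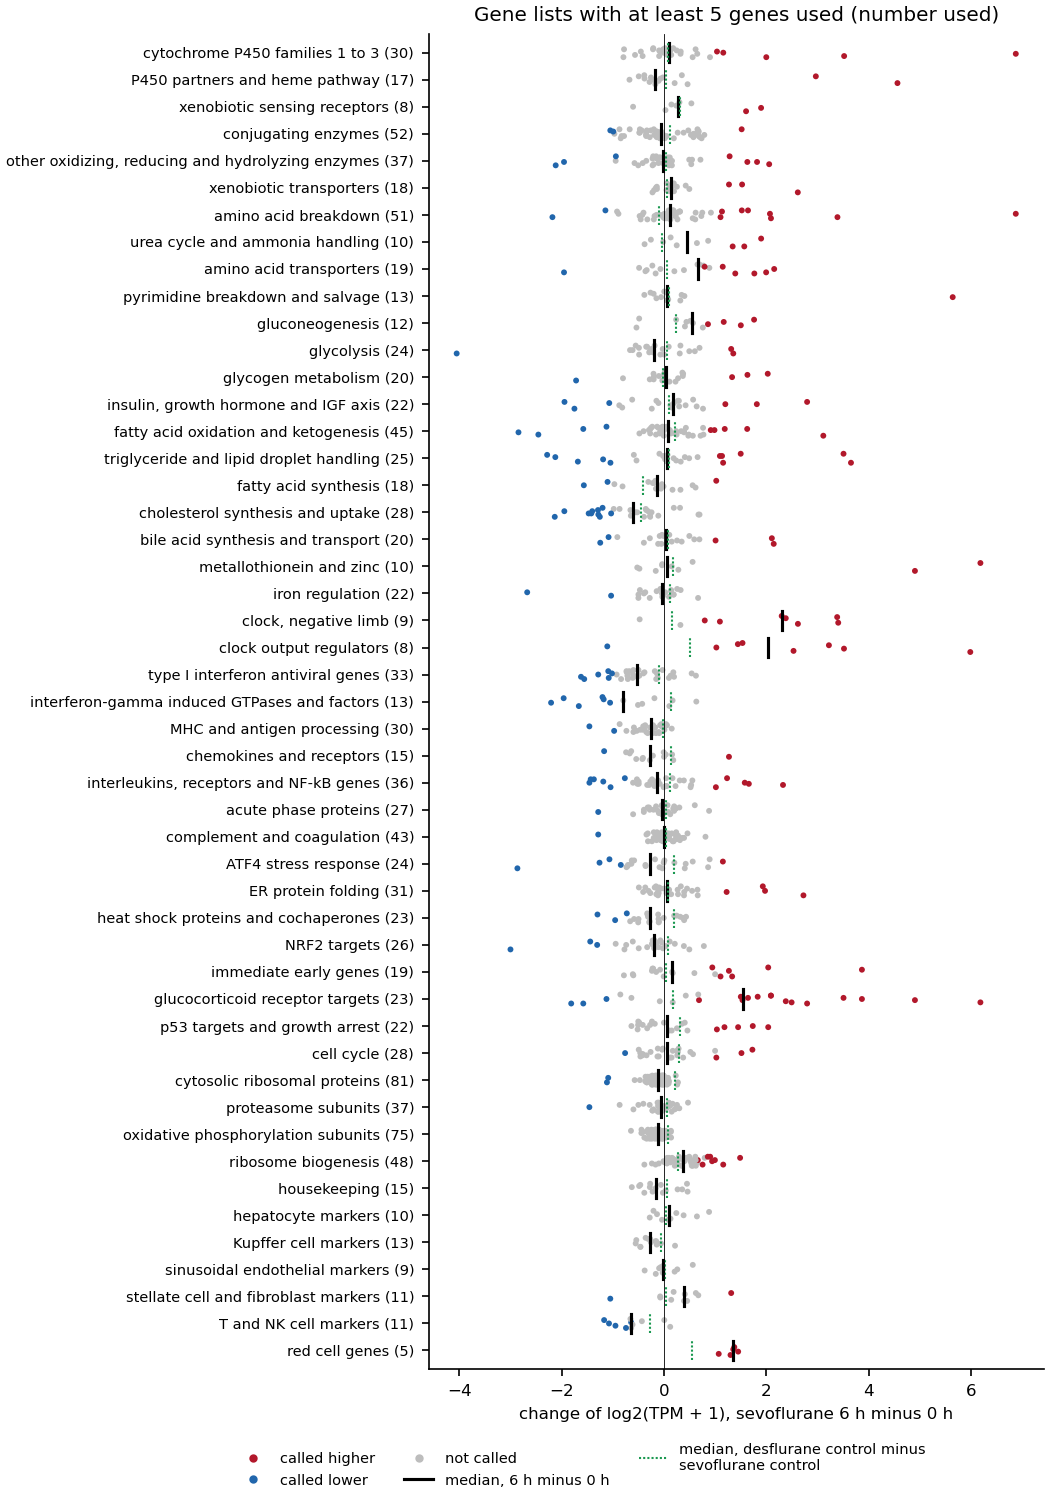
Change of log2(TPM + 1) at sevoflurane 6 h against 0 h for the members of each gene list with at least 5 genes used (x); each point is a gene, the black bar is the median and the dotted green bar the median difference of the controls. The clock and glucocorticoid lists have medians above 1.5, the interferon, cholesterol and T and NK cell lists have negative medians, and most other lists have medians near 0 with a few distant members.

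Markers of the cells that share the tissue with hepatocytes were examined in the same way. Of 13 Kupffer cell markers 12 were negative, beside 10 between the controls, and 0 were called (median -0.27, beside -0.05). Their summed TPM was 629 at 0 h, 528 at 6 h and 591 in the desflurane control. *Clec4f*, which marks these resident macrophages, (134, 112 and 134) and *Cd163* (19.5, 22.8 and 19.2) were not called. Of 8 T and NK cell markers above the minimum 5 were lower and 0 higher, 3 of them against both controls, beside 3.71% lower over all genes. The median was -0.64, beside -0.27 between the controls, and it was -0.23 against the desflurane control. By the same rule 2 markers were lower in the desflurane control than in the sevoflurane control. The summed TPM of the list was 37.4, 22.2 and 30.9. *Klrk1* (3.81, 1.28 and 3.34), *Xcl1* and *Cd8a* (2.24, 1.08 and 3.08) were lower than both controls, and *Nkg7* (2.87, 1.005 and 0.942) and *Prf1* (2.36, 1.01 and 1.04) than their own, all at low TPM. *Cd3e*, the T cell receptor component, was at 0, 0.0575 and 0. The part of these cells in the lower interferon-induced and MHC genes was not tested.

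Stellate cell, endothelial, bile duct and neutrophil markers included 10, 8, 1 and 1 genes above the minimum, in that order. Of the 10 stellate cell genes 1 was higher and 1 lower, beside 5.04% and 3.71% of all genes. The pericyte gene *Rgs5* (3.82, 10.98 and 4.73) was higher and *Pdgfrb* (6.04, 2.41 and 4.51) was lower than its own control, while *Col1a1* (2.097, 3.24 and 2.24) and *Reln* (6.08, 8.2999 and 6.71) were not called. Of the 8 sinusoidal endothelial markers above the minimum 0 were called, *Stab2* among them (10.6, 12.95 and 11.1). *Epcam* (5.47, 7.03 and 4.702) and *Krt19* (1.69, 1.05 and 1.895), of bile ducts, were not called, and 0 of 6 B cell markers exceeded the minimum. *S100a8* (0.7398, 2.19 and 0.812) was the 1 of 8 neutrophil markers above the minimum, and it was called higher, near that minimum. All 5 red cell genes above the minimum were higher than the sevoflurane control and 0 were called against the desflurane control. The alpha globin genes summed to 318, 822 and 466 TPM and the beta globin genes to 312, 843 and 521, and *Alas2*, the erythroid form of the heme enzyme, was at 1.57, 5.32 and 3.03. *Alas2* moved beside the globins, whereas *Alas1*, the hepatic form, was named above with the P450 genes. Of 11 pancreatic acinar genes 0 exceeded the minimum, with a summed TPM of 1.04, 1.01 and 1.51.

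Several of the largest changes belonged to genes in none of the lists. *Hsd17b2*, which inactivates estradiol and testosterone, had a TPM of 35.6 at 0 h, 747 at 6 h and 134 in the desflurane control, 20.98-fold higher than its own control and 5.57-fold than the other. The zinc finger gene *Zfp354a* was 29.4-fold higher (5.18, 152 and 16.8). *Rhbdd2*, a rhomboid family gene of the secretory pathway, (0.504, 17.1 and 1.19) and *Eif4ebp3*, which encodes a binding protein of the cap factor eIF4E, (2.01, 34.9 and 2.74) were 33.96-fold and 17.4-fold higher. All 4 were higher than both controls.

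Among the genes with large decreases, *Stac3*, best known from muscle, stood at 295 TPM at 0 h, 22.3 at 6 h and 179.6 in the desflurane control. *Inhba*, which encodes the chain of activin A, was 58.7-fold lower (6.03, 0.103 and 5.27). *Gimd1*, a GTPase of the GIMAP type, (18.4, 0.869 and 12.9), *Dipk2a* (37.97, 3.58 and 27.1) and *Chka*, which phosphorylates choline for membrane synthesis, (38.6, 4.12 and 31.6) were 21.2-fold, 10.6-fold and 9.36-fold lower. *Angptl8*, an insulin-induced inhibitor of lipoprotein lipase, was 6.22-fold lower (67.3, 10.8 and 35.3). The phosphate transporter *Slc34a2* (13.3, 1.45 and 23.5), the tubulin *Tubb2a* (81.7, 13.1 and 71.1), the exchange factor *Arhgef19* (8.68, 0.934 and 8.96), the kinase *Ptk6* (9.11, 1.204 and 8.198) and *Hsd3b5*, a steroid enzyme of male rodent liver, (296, 63.2 and 264) were between 4.69-fold and 9.29-fold lower. Each of these 11 genes was lower than both controls, and 0 of them belonged to a list.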

How the data were processed

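Each of the 4 liver libraries had 1 gene abundance table. The submitters' processing notes name HISAT2, SAMtools, StringTie and the build rn6, and no roles or versions of these tools are stated there. According to the labels the livers were kept in RNAlater and stranded total RNA libraries were made. The TPM column deposited by the authors was handled as a score, because the rows of assembled loci and of named genes together exceed the total of a TPM column. The FPKM and the coverage signal deposited by the authors were used for depth only, the aligned bases being coverage divided by FPKM. Without read counts in the tables, counting error could not be given.

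Groups came from the labels. Named rows spanning over 200 bp were summed by symbol (pandas 2.3.3, NumPy 2.4.6, Python 3.11.15). With 1 library a group no p-value was computed. The call needed a TPM above 2 in the higher library and a ratio above 2, log2 values used a pseudocount of 1, and medians used genes averaging a TPM of 1 or more. The code of the rule of size was run on simulated data with planted changes. The simulated noise was smaller than the spread between the control livers, so the run gives no error rate for these data. The 54 gene lists held 1402 genes, of which 1344 were found. The members and lists were chosen with earlier results of these data known. Genes were named by a rule, as the 20 called genes with the largest and the 20 with the smallest change, the called members of each list (at most 6, by absolute change) and key genes of each list, 268 in all. Some of these are not reported here. Among the distinct list members 120 were called higher and 82 lower.

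Promoters were matched by symbol to RefSeq (GRCr8), and 15057 analysed symbols (88.6%) were in the RefSeq gene table of that build. Coordinates of genes are those deposited, and the promoter search used the motifs E-box, D-box, ROR element, metal response element, interferon-stimulated element, gamma-activated site, cAMP response element (TGACGTCA, in 1.91% of promoters and in *Ppp1r15a* of the called genes searched) and glucocorticoid palindrome (ACANNNTGT, in 6.60% and in *Nfil3*). The genes searched were the called members of the clock, metallothionein, interferon, heat shock and ATF4 lists. The list of glucocorticoid receptor targets was not searched as a set. Alternatives comprised the other control, scalings, thresholds, the span filter, the handling of rows and the pseudocount. The later experiment with a common hour of harvest was not analysed here.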

Additional observations from a re-analysis of the deposited data

Results flagged for a closer look

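In 3 of the named genes the change with sevoflurane was called and the change with desflurane, 6 h against the desflurane control, was called in the opposite direction. The change of log2(TPM + 1) was -1.03 for *Insig1*, the sterol sensor of the ER, which was 53.6 TPM at desflurane 0 h and 279 at desflurane 6 h. For *Gdf15*, a stress hormone, it was -1.26, beside 1.10 and 14.5 TPM with desflurane. For *Gstm5*, a glutathione transferase, it was -1.05, beside 1.88 and 4.93 TPM with desflurane. The difference between the agents was not tested, since each agent had 1 library at each time. The 3 decreases were not past the rule against the desflurane control, where the changes of *Insig1* and *Gdf15* turned positive.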

How the results depend on the processing

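Against the desflurane control 271 genes were higher and 332 lower, and against both controls 210 were higher, 169 lower and 131 list members called, where the own control gave 417, 307 and 202. With a ratio above 1.5 the same counts were 1150, 774 and 365, and with a ratio above 3 they were 166, 118 and 111. With a TPM minimum of 5, 195 genes were lower. Genes called higher made up 57.6% of calls, 44.9% against the desflurane control and 51.5% with 371 higher and 349 lower after scaling by the median of ratios. Against the desflurane control the log2 change turned to -0.079 for *Cxcr4*, 0.47 for *Fasn*, 0.14 for *Gdf15*, 0.37 for *Insig1*, 0.046 for *Nkg7* and 0.76 for *Rpl39l*, and 51 further named genes lost their call. Keeping the row with the largest mean in place of the sum gave 7.03 for *Mbl2*, because that row is absent at 0 h. Keeping the largest row of each library, chosen after seeing the data, gave -0.31 for *Mbl2* and -0.21 for *Rps9*, both no longer called. Of 46 symbols with unequal numbers of rows between the sevoflurane libraries, 6 were called. Scaling by the median of ratios ended the calls of 2 named genes. No call uses the pseudocount, and a pseudocount of 0.1 moved 9 list medians by 0.1 or more on the log2 scale, none to the other sign. No paired analysis was possible because each group holds 1 library. Genes near a TPM of 2 rest on low coverage, least at sevoflurane 0 h.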

Other observations

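Other gene families were looked through after the values were seen, and 2 of them are described here as values, with no claim that they stand apart. Among the Kruppel-like factors, zinc finger regulators of which several respond to hormones, 5 of 8 above the minimum were higher and 0 lower. Over all genes 5.04% were higher. All 5 were higher than both controls. *Klf13*, *Klf16* and the uncalled *Klf3* passed the minimum only through the 6 h library, so the count of 8 itself depends on that library. *Klf9*, a target of glucocorticoids and the clock, had a TPM of 10.21 at 0 h, 46.8 at 6 h and 11.7 in the desflurane control. *Klf15*, a regulator of amino acid breakdown, had 12.7, 49.7 and 14.3 in the same order. *Klf13* had 1.99, 8.39 and 3.92, *Klf16* had 1.770, 7.34 and 2.35, and *Klf10* had 3.43, 7.53 and 2.30. The other 3, *Klf3*, *Klf6* and *Klf12*, were not called. The controls differed by the rule in 0 of the 15 members found.

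The mitochondrial carriers of family Slc25, which move metabolites across the inner membrane, had 9 of 27 members higher and 0 lower, beside 5.04% of all genes higher. Of the 9, 5 were higher than both controls. As the family was picked with its values known, this count is no measure of the family. The folate and riboflavin related carrier *Slc25a32* had 6.21 TPM at 0 h, 54.5 at 6 h and 8.36 in the desflurane control, 8.78-fold higher than its own control. The pyrimidine nucleotide carrier *Slc25a33* had 4.68, 20.6 and 5.69, the ATP-magnesium carrier *Slc25a25* had 44.5, 140.4 and 52.1, and *Slc25a29*, a carrier of basic amino acids, had 0.590, 2.49 and 0.768. *Slc25a47*, a liver carrier, was higher than its own control only, at 100.4, 238 and 162. The abundant phosphate carrier *Slc25a3* (185, 172 and 198) and the adenine nucleotide carrier *Slc25a5* (314, 299 and 296) were not called.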
